A study of Saccharomyces cerevisiae with 22 samples.

Results

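A pair of lineages of Saccharomyces cerevisiae that had evolved separately, D11 and H9, were compared while both carried the plasmid-borne Ser-tRNACAG, a tRNA that puts serine in place of leucine at CUG codons. The comparison rests on 6 of the 22 arrays of the series, 3 of D11 with the tRNA and 3 of H9 with the tRNA, chosen by their titles and not by any measured value. Both lineages derive from a self-diploid strain built on BY4742, which is MATalpha with his3Δ1, leu2Δ0, lys2Δ0 and ura3Δ0. The tRNA gene, taken from Candida albicans, sits on a single-copy LEU2 plasmid, whose empty form is pRS315. Independent populations had been propagated with this plasmid in synthetic complete medium without leucine, for 20 weeks by the labels. The study's text states a shorter time. D11 and H9 were each grown from a single colony of a different one of these populations. Each lineage therefore stands for 1 clone, and the 3 arrays of a lineage measure the spread between RNA samples of that clone. RNA was taken from cells in mid-log growth in the same medium, and each array measured 1 RNA sample in 1 colour. The other groups of the series are D11 and H9 with the empty vector in place of the tRNA, the unevolved ancestor with either plasmid, and another lineage, B3, with either plasmid. They entered the same fit and served as a background here.

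A tRNA that misreads a codon makes every protein with that codon a mixture of correct and wrong chains, and cells respond through chaperones, the proteasome and changes in translation. Yeast lines that adapt to such a burden often carry extra or missing chromosome segments, and the transcripts of the genes on them usually follow the copy number. Other gene groups can differ between lines with no such change nearby. One that recurs below is the supply of thiamine (vitamin B1), whose diphosphate is the cofactor of pyruvate decarboxylase and other enzymes; yeast either imports thiamine or makes it from a pyrimidine and a thiazole part, and the genes for both are repressed together when thiamine is plentiful. Another is the kynurenine pathway, which makes NAD from tryptophan.

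All levels below are log2 signals relative to the median of the array, averaged over the spots of a gene, and a difference of 1 is 2-fold. Median signals were 956, 567 and 798 on the D11 arrays and 1010, 1300 and 1080 on the H9 arrays, and between 89.7% and 94.7% of spots were well above background. The second D11 array stood apart. It correlated at 0.967 and 0.965 with the other D11 arrays, which correlated at 0.993 with each other, while the H9 arrays correlated at 0.991 to 0.995. On it, 395 genes lay more than 1 below the mean of the other D11 arrays and 33 more than 1 above. Of the 395, 299 were also more than 1 lower on the third array of D11 with the empty vector than on the other arrays of that group. The genes named here that did not pass without the second D11 array are therefore given at the end. Arrays of the same replicate number shared a slide, and the third slide was scanned on a different day. Mating-type genes went with the labelled MATalpha background in both lineages, since the 6 MATalpha genes examined were at 1.32 or above on all 6 arrays, and the 7 MATa-specific genes at -1.16 or below. HIS3, LYS2 and URA3 did not pass the filter on dim genes (levels from -8.52 to -5.11 on the 6 arrays), and LEU2, which the plasmid supplies, lay between 5.28 and 5.72.

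Of 5911 genes tested, 82 (1.39%) were called different between D11 and H9 at an adjusted p under 0.05 in limma (Benjamini-Hochberg over all genes) and at least a 2-fold difference. D11 was higher for 76 of them (1.29% of genes tested) and lower for 6 (0.102%). For 24 of the 76, H9 was nearer than D11 to the ancestor with the tRNA. Without the fold threshold 509 genes (8.61%) passed, 452 higher (7.65%) and 57 lower (0.964%) in D11. These shares are the background for the counts of list members below. The D11 and H9 arrays did not overlap for 79 of the 82 called genes, and across all genes they did not overlap for 20.9% with D11 higher and 11.7% with D11 lower. Most called genes were weakly expressed. Of the 1183 genes (20%) with the lowest mean level over all arrays, 64 were called higher and 4 lower, which leaves 12 and 2 among the other genes. Among those 1183 the median difference from H9 was 0.04 on the first D11 array, 0.08 on the second and 0.37 on the third, and the part of this shift in the calls was not tested. In these bulk cultures, a change in every cell and a change in the share of cells that express a gene cannot be told apart. With quantile normalization, which makes the distribution of values the same on every array, 55 genes were called, 44 higher and 11 lower. The plot of difference against level shows both features of the comparison, a band of chromosome XII genes above 0 at every level and a scatter of called genes at the low end.

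**Figure D1:**
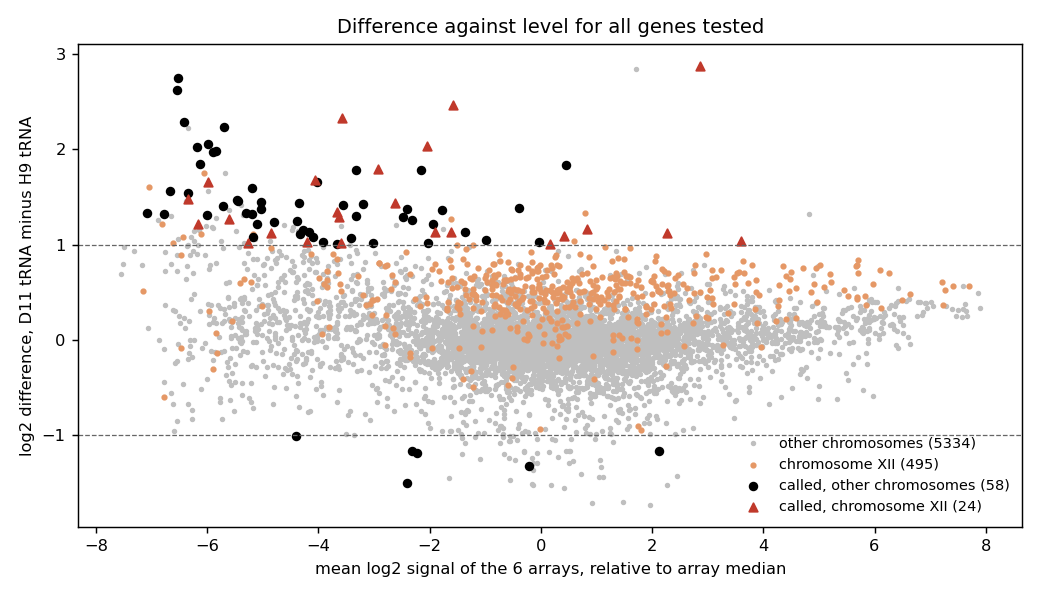
Each point is 1 of 5911 genes; the x axis is its mean log2 signal over the 6 arrays relative to the array median, the y axis the log2 difference D11 tRNA minus H9 tRNA, and dashed lines mark a 2-fold difference. Chromosome XII genes lie mostly above 0 at all levels, and 64 of the 76 genes called higher are among the 1183 genes with the lowest mean level.

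Genes of chromosome XII were higher in D11 as a group. The mean over its 519 tested genes, set against the mean of the H9 arrays, was 0.52, 0.46 and 0.57 on the D11 arrays and 0.01, 0.02 and -0.03 on the H9 arrays. The groups did not overlap, and the mean difference was 0.52 ± 0.06 (SD over 3 D11 arrays), or 1.43-fold (exact two-sided permutation test over 6 arrays, p = 0.1, the smallest that 3 against 3 can give). Within the slides the difference was 0.51, 0.43 and 0.60, and without the second D11 array it was 0.55. It was spread over the chromosome rather than held by a few genes: 484 of 519 genes (93.3%) were above 0, against 51.6% of all genes tested, and the quartiles of the differences were 0.34 and 0.68. The left arm had a median of 0.53 over 65 genes and the right arm 0.51 over 454. Copy number itself was not measured by these arrays. For 338 genes the difference was within 0.25 of 0.585, the log2 of a 3 to 2 ratio. In all, 262 genes of XII passed the test higher in D11 (50.5%, against 3.52% of the 5392 genes elsewhere) and none lower, while 4.58% of the genes elsewhere passed in either direction. With the 2-fold threshold 24 of the 76 genes called higher lay on XII.

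**Figure D2:**
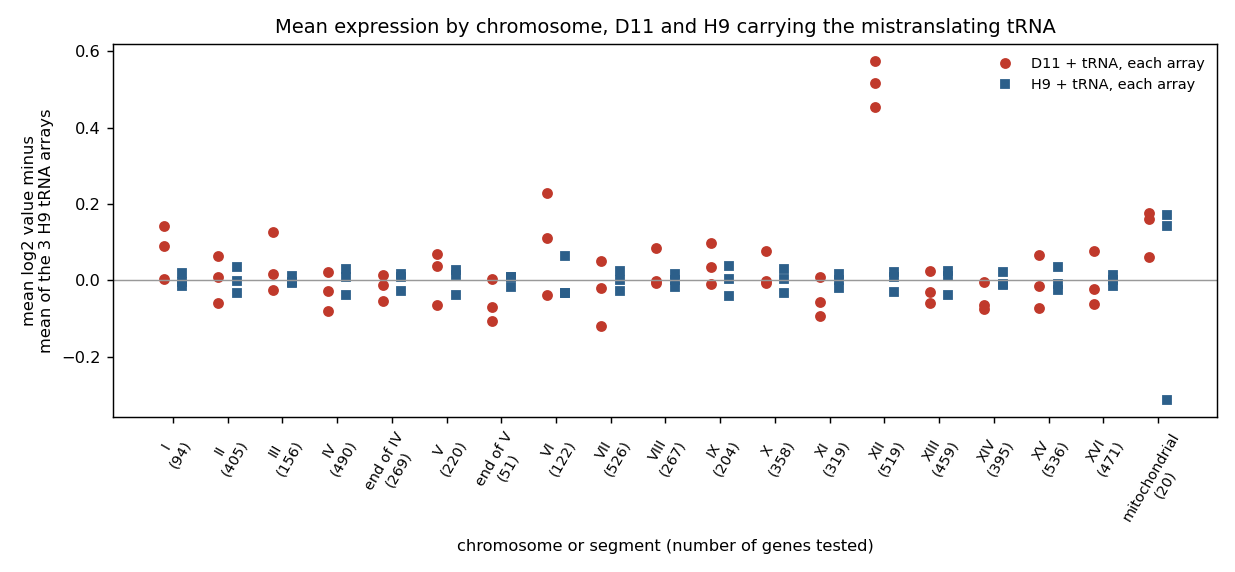
Mean log2 value over the tested genes of each chromosome or segment, set against the mean of the 3 H9 tRNA arrays (y axis), with 1 point per array for D11 with the tRNA (circles) and H9 with the tRNA (squares). Only chromosome XII separates the lineages by more than 0.4; the D11 arrays lie at 0.45 to 0.58 there and the H9 arrays within 0.03 of 0.

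The same shift stood between the lineages without the tRNA, at 0.49, 0.51 and 0.34 on the D11 vector arrays relative to the mean of the H9 vector arrays. It also separated the ancestor with the tRNA from H9 with the tRNA (mean 0.40 ± 0.03, SD, n = 3). With the tRNA, the median over XII genes was 0.115 for D11 minus the ancestor and -0.397 for H9 minus the ancestor. For all genes tested these medians were 0.048 and 0.047. On XII, D11 thus lay nearer the ancestor than H9 did. D11 and H9 lay close together on the ends of chromosomes IV and V, segments whose copy number the study examined in its evolved lines. For the end of IV, from YDR262W to the end of the arm (269 genes), the D11 arrays were at -0.01, -0.05 and 0.01 and the H9 arrays at 0.01, 0.02 and -0.03 (exact permutation p = 0.6), and 7 of its genes passed the test, 6 higher and 1 lower. For the end of V, from YER139C onward (51 genes), they were at -0.07, -0.10 and 0.00 in D11 and 0.01, 0.01 and -0.02 in H9 (p = 0.2, exact). Relative to H9 with the tRNA, the ancestor with the tRNA lay -0.56 away on the end of IV and 0.85 on the end of V, so the lineages sat together on these segments and apart from the ancestor. The 20 mitochondrially encoded genes overlapped, with means of 0.16, 0.06 and 0.18 in D11 and 0.17, 0.14 and -0.31 in H9. None of them passed the test; AI5_BETA and COX1 had the smallest p (differences 0.43 and 0.41, adjusted p = 0.523 and 0.563). The means of the other chromosomes lay between -0.05 and 0.10.

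Many genes of thiamine and NAD supply, which lie on many chromosomes, were higher in D11 as well. Among the 44 genes of thiamine, biotin, vitamin B6, riboflavin and NAD synthesis and uptake, 17 passed the test higher in D11 and none lower, and 8 were also past 2-fold, against 7.65% and 1.29% of all genes. The 17 were 13 genes of thiamine supply and 4 of NAD supply, and no biotin or riboflavin gene passed. The list median was 0.41, and 0.35 without its members on XII, the end of IV and the end of V. On single arrays it was 0.40, 0.55 and 0.39 in D11, against -0.01, 0.01 and 0.02 in H9. Without the second D11 array 16 genes passed higher and none lower.

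That list held 20 thiamine-related genes (the THI genes, PHO3 and the SNZ and SNO genes of the pyrimidine branch). Of the 20, 13 were higher in D11, against 7.65% of all genes. None was lower, and the median difference was 0.76. THI7 (YLR237W), the plasma membrane thiamine transporter, was at 4.20, 4.69 and 4.004 in D11, against 1.50, 1.23 and 1.51 in H9 (difference 2.88 ± 0.30 SE, adjusted p = 2.4e-05). This was the largest called difference in the comparison, 7.36-fold, and the arrays of the lineages stood far apart on all 3 slides, by 2.69, 3.45 and 2.49. THI73 (YLR004C), a putative transporter, was at -0.27, -0.42 and -0.34 in D11, against -2.77, -2.64 and -3.02 in H9 (difference 2.47 ± 0.27 SE, adjusted p = 3.62e-05). Both lie on chromosome XII, whose median difference was 0.51. THI20 (YOL055C), which phosphorylates the pyrimidine precursor, was at 1.46, 1.46 and 1.19 in D11, against -0.43, -0.29 and -0.69 in H9 (difference 1.84 ± 0.20 SE, adjusted p = 3.63e-05). THI2 (YBR240C) is a transcriptional activator of the thiamine genes. It was at -1.21, -1.41 and -1.19 in D11, against -3.10, -2.97 and -3.08 in H9 (difference 1.78 ± 0.20 SE, limma, adjusted p = 3.63e-05). THI20 and THI2 lie on other chromosomes. For each of these 4 genes every D11 array was above every H9 array, as for 20.9% of all genes tested. THI4 (YGR144W), which makes the thiazole part, was at -1.53, -1.57 and -1.49 in D11, against -2.44, -2.54 and -2.67 in H9 (difference 1.02 ± 0.09 SE, adjusted p = 8.98e-06). The spread within each lineage was small for THI4, with SDs of 0.04 and 0.11. PET18 (YCR020C), which resembles part of the Thi20 protein, was at 0.37, 0.31 and 0.23 in D11, against -1.10, -0.87 and -1.27 in H9 (difference 1.38 ± 0.12 SE, adjusted p = 8.98e-06). PET18 was outside the list.

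The pyrimidine synthases THI5, THI11, THI12 and THI13 were higher by 0.86, 0.91, 0.93 and 1.32. Their sequences are nearly identical, so their probes may report the family and not each gene. THI13 was well above background on only 2 arrays of each lineage. SNZ2, SNZ3, SNO2 and SNO3, paired genes of vitamin B6 synthesis that also work in the thiamine branch, were higher by 0.66, 0.69, 0.81 and 0.71, with the same reservation for each pair of copies. SNZ1 and SNO1, the copies used for vitamin B6 itself, did not pass (0.21 and 0.20, adjusted p = 0.443 and 0.874). The other thiamine genes did not pass either: THI80, the thiamine pyrophosphokinase, had 0.02 (adjusted p = 0.958), and THI3, THI6, THI21, THI22, THI72 and PHO3 lay between -0.14 and 0.53. The ancestor with the tRNA averaged 2.21 for THI7, -0.14 for THI20 and -2.42 for THI2, values that lay between D11 (4.30, 1.37 and -1.27) and H9 (1.42, -0.47 and -3.05). The ancestor lay between the lineages for 10 of the 13 thiamine genes that passed and above D11 for the other 3, at -1.40 for THI4 (-1.53 in D11), -3.44 for SNO2 (-3.63) and -3.73 for SNO3 (-4.11).

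**Figure D3:**
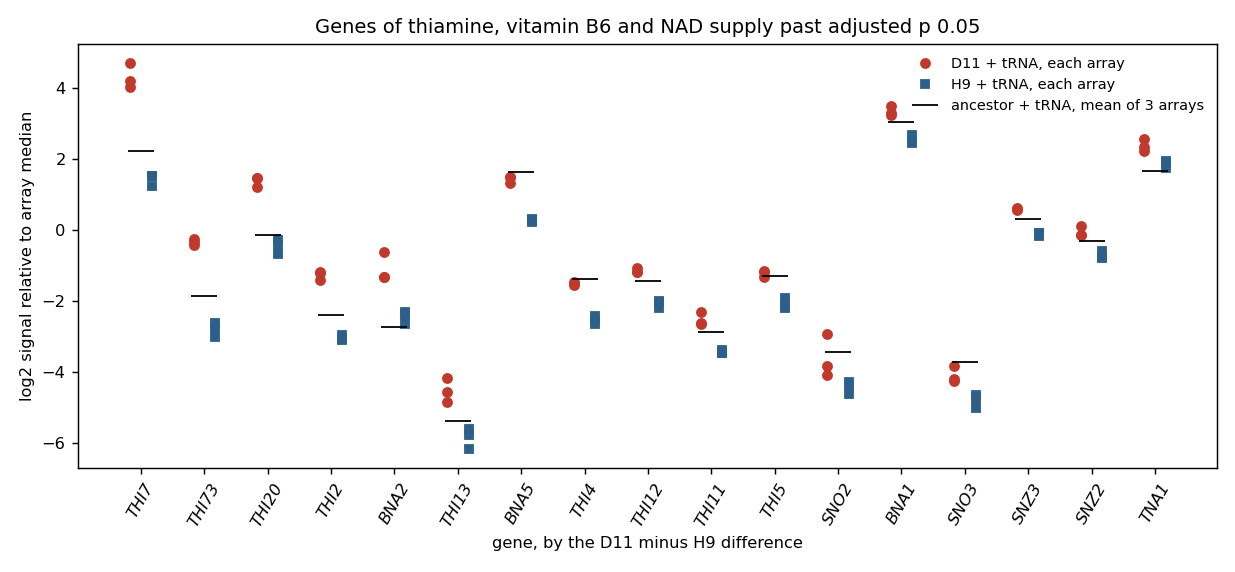
Log2 signal relative to the array median (y axis) of the 17 vitamin genes that passed the test, with 1 point per array for D11 with the tRNA (circles) and H9 with the tRNA (squares), and a bar for the mean of 3 arrays of the ancestor with the tRNA. Every D11 array lies above every H9 array for each gene, as for 20.9% of all genes tested, and THI7, THI73, THI20 and THI2 are the most separated.

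The lineages did not stand apart in this way without the tRNA. With the empty vector the 20 thiamine genes had a median difference of 0.07. Of the 20, 3 passed the test higher and 1 lower, against 20.4% and 13.4% of all genes. THI20 averaged -0.09 in D11 and 0.04 in H9 with the vector, THI2 -2.54 and -2.31, and THI4 -2.30 and -2.12. The D11 minus H9 difference with the tRNA exceeded that with the vector by 2.01 for THI2 (limma interaction, adjusted p = 0.00151), 1.97 for THI20 (adjusted p = 0.002), 1.20 for THI4 (adjusted p = 0.000165) and 1.22 for PET18 (adjusted p = 0.00151). For THI7, with means of 3.33 in D11 and 2.27 in H9 with the vector, it was 1.82 (adjusted p = 0.017), and for THI73 1.84 (adjusted p = 0.0113). In all, 10 of the 20 thiamine genes passed this test with a larger difference under the tRNA, against 6.16% of all genes. Fitted over the 12 arrays of D11 and H9 alone, 4 of the 20 passed, THI2, THI4, THI20 and THI73 (adjusted p = 0.0371, 0.0127, 0.0323 and 0.0455), as did PET18 (0.0316), and THI7 did not (0.0962).

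Of 10 genes of NAD supply, 4 were higher in D11 and none lower, against 7.65% and 0.964% of all genes. BNA5 (YLR231C), the kynureninase, was at 1.47, 1.48 and 1.31 in D11, against 0.26, 0.31 and 0.20 in H9 (difference 1.16 ± 0.11 SE, adjusted p = 1.03e-05). BNA2 (YJR078W), which opens the pathway by cleaving the indole ring of tryptophan, was at -1.33, -0.63 and -1.33 in D11, against -2.41, -2.65 and -2.33 in H9 (difference 1.36 ± 0.29 SE, adjusted p = 0.00639). BNA1, a later step of the same pathway, was higher by 0.79 and TNA1, the nicotinic acid transporter, by 0.51, though TNA1 did not pass without the second D11 array (adjusted p = 0.0646). BNA4, BNA6, BNA7, BNA3 and NPT1 did not pass, with differences from -0.08 to 0.63. NRT1 had -0.52 (adjusted p = 0.695) and 0.46 without the second D11 array, on which alone it was low. BNA5 had the smallest adjusted p of the interaction of all genes tested (1.23e-05): with the vector it averaged -0.06 in D11 and 0.65 in H9, so that the lineages stood in the opposite order (-0.71, adjusted p = 0.000297). BNA5 lies on XII, and the ancestor with the tRNA averaged 1.63, near D11.

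Several other genes of known function were more than 2-fold higher in D11, on chromosome XII and elsewhere. CAR2 (YLR438W), the ornithine transaminase of arginine breakdown, was at 2.93, 2.72 and 2.84 in D11, against 1.55, 1.68 and 1.91 in H9 (difference 1.12 ± 0.16 SE, adjusted p = 0.000229). ERG27 (YLR100W), a reductase of ergosterol synthesis, was at 4.12, 4.24 and 3.96 in D11, against 3.16, 3.16 and 2.90 in H9 (difference 1.03 ± 0.12 SE, adjusted p = 4.76e-05). CTR3 (YLR411W), a copper transporter of the plasma membrane, was at -1.02, -1.01 and -1.06 in D11, against -2.97, -2.95 and -3.27 in H9 (difference 2.03 ± 0.30 SE, adjusted p = 0.000388). CTR3 thus exceeded the median of its chromosome by more than 1. CDA1 (YLR307W), a chitin deacetylase of the spore wall, was at -2.28, -2.60 and -2.36 in D11, against -4.53, -4.63 and -5.06 in H9 (difference 2.33 ± 0.21 SE, adjusted p = 9.71e-06). EMP46, EMA19 and YLR125W, also on XII, were higher by 1.13, 1.09 and 1.01. Off chromosome XII, SPS19 (YNL202W), a peroxisomal reductase used on unsaturated fatty acids, was at -0.34, -0.58 and -0.46 in D11, against -1.40, -1.53 and -1.60 in H9 (difference 1.05 ± 0.17 SE, adjusted p = 0.000686). ANB1 (YJR047C), the hypoxic form of translation factor eIF5A, was at 0.43, 0.63 and 0.37 in D11, against -0.60, -0.52 and -0.53 in H9 (difference 1.03 ± 0.14 SE, adjusted p = 0.000217). HXT9 (YJL219W), a hexose transporter, was at -1.70, -1.83 and -1.65 in D11, against -3.19, -2.92 and -3.18 in H9 (difference 1.37 ± 0.12 SE, adjusted p = 8.98e-06). HXT9 closely resembles HXT11, and its probe may report both. OYE3 (YPL171C), an NADPH oxidoreductase, was at -1.95, -1.80 and -1.77 in D11, against -3.19, -3.10 and -3.08 in H9 (difference 1.29 ± 0.17 SE, adjusted p = 0.000169).

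The other genes with the largest positive differences were dim. For PRM6, YOL160W, GIT1, IRC18 and SPS22 no H9 array was well above background. Their folds were therefore also taken against a floor in H9. They were 3.24 for YOL160W, 3.04 for PRM6, 2.86 for GIT1, 4.15 for IRC18 and 3.29 for SPS22. These are estimates near background and not lower bounds. Each of these folds sets the mean of the 3 D11 arrays against a mean over the H9 arrays. For each H9 array it takes the higher of the gene's own signal and the lowest signal well above background on that array. In D11 these genes were near background too: GIT1 and IRC18 were above it on 1 of the 3 arrays, and YOL160W, PRM6 and SPS22 on 2. YOL160W was at -5.61, -4.74 and -5.09 in D11, against -8.02, -7.72 and -7.95 in H9 (adjusted p = 9.71e-06). PRM6, a pheromone-induced membrane protein, was at -7.03, -4.59 and -4.09 in D11, against -7.86, -7.71 and -8.03 in H9 (adjusted p = 0.0104), with the first D11 array far below the others. GIT1, the transporter of glycerophosphoinositol, was at -5.55, -6.06 and -4.21 in D11, against -7.02, -7.70 and -7.95 in H9 (adjusted p = 0.0021). IRC18 was at -5.08, -5.09 and -3.54 in D11, against -6.59, -7.13 and -6.71 in H9 (adjusted p = 0.00436) and its neighbour LOH1 at -5.50, -5.71 and -4.42 in D11, against -7.44, -6.25 and -7.49 in H9 (adjusted p = 0.0142). SPS22, a spore wall protein, was at -5.46, -4.92 and -4.15 in D11, against -6.54, -7.36 and -6.58 in H9 (adjusted p = 0.0107). SDD1 was at -5.92, -4.68 and -4.30 in D11, against -6.41, -7.08 and -7.57 in H9 and SOR1, the sorbitol dehydrogenase, at -5.33, -4.99 and -4.41 in D11, against -7.38, -5.52 and -7.74 in H9 (adjusted p = 0.0276 and 0.0317). For these 2 genes and LOH1, 1 H9 array was above background, and SDD1 and SOR1 did not pass without the second D11 array (adjusted p = 0.0842 and 0.0659). Across all 82 called genes, 12 had no H9 array above background and 2 no D11 array.

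The 6 genes called lower in D11 did not overlap between the lineages, which held for 79 of all 82 called genes. Among all genes tested, 11.7% did not overlap with D11 lower. FMP48 (YGR052W), a protein kinase homologue of the mitochondria, was at -3.03, -3.66 and -2.79 in D11, against -1.62, -1.73 and -1.59 in H9 (difference -1.51 ± 0.22 SE, adjusted p = 0.000277). CIP1 (YPL014W), an inhibitor of cyclin-dependent kinase, was at -0.68, -1.36 and -0.62 in D11, against 0.17, 0.58 and 0.58 in H9 (difference -1.33 ± 0.20 SE, adjusted p = 0.000382). CYB2 (YML054C), the lactate dehydrogenase of the mitochondrial intermembrane space, was at -2.81, -3.18 and -2.48 in D11, against -1.70, -1.56 and -1.62 in H9 (difference -1.20 ± 0.24 SE, adjusted p = 0.0038). HSP30 (YCR021C), a stress-induced plasma membrane protein, was at 1.79, 1.02 and 1.80 in D11, against 2.75, 2.64 and 2.74 in H9 (difference -1.18 ± 0.27 SE, adjusted p = 0.0107). NCA3 (YJL116C), a protein of the SUN family, was at -2.59, -3.38 and -2.75 in D11, against -2.06, -1.87 and -1.27 in H9 (difference -1.17 ± 0.33 SE, adjusted p = 0.032). YJR087W was at -4.93, -5.32 and -4.45 in D11, against -4.06, -3.51 and -4.10 in H9 (difference -1.01 ± 0.25 SE, adjusted p = 0.0176). The second D11 array was the lowest of the 3 for each of the 6. Without it FMP48, CIP1 and CYB2 still passed (-1.26, -1.10 and -1.02, adjusted p = 0.00146, 0.00183 and 0.0215), and HSP30, NCA3 and YJR087W did not (-0.92, -0.94 and -0.80, adjusted p = 0.0548, 0.128 and 0.0842).

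Genes for the use of other sugars and carbon sources included many that were higher in D11. Of 19 genes of galactose, maltose and sucrose use, 9 were higher, against 7.65% of all genes, and none lower (median 0.47; 0.39, 0.17 and 0.52 on the D11 arrays). GAL2, the galactose permease on XII, was higher by 1.12 (adjusted p = 0.00608) and the maltase MAL32 by 1.08 (adjusted p = 0.00173); MAL12, MAL13, MAL33, IMA1, IMA2, MPH2 and SUC2, the invertase, were higher by 0.47 to 0.87, and the maltose genes among them include near-identical copies. In the hexose transport list 3 of 25 genes were higher, against 7.65% of all genes, and 1 lower. HXT17 was higher by 1.37 (limma, adjusted p = 0.0202) beside HXT9 and GAL2, and STD1, a regulator of glucose sensing, was lower (-0.45). Neither HXT17 nor MAL32 was well above background on all 6 arrays. HXT17 did not pass without the first D11 array, nor without the second or the third H9 array. Among genes of gluconeogenesis, the glyoxylate cycle and acetate use, 6 of 36 were higher, against 7.65% of all genes, and 1 lower (median 0.38). SPS19, the activator SIP4 (0.86), IDP2 (0.76, on XII), the acetyl-CoA synthetase ACS1 (0.63), YAT1 (0.60) and ICL2 (0.41) were higher. The malate dehydrogenase MDH2 (-0.53) was lower. Glycolysis and fermentation had 1 gene higher of 29, PDC6, a minor pyruvate decarboxylase (0.86, adjusted p = 0.0328; 0.068 without the second D11 array). GPM2 had 1.16 with an adjusted p of 0.0861.

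Among genes of nitrogen use 7 of 36 genes were higher, against 7.65% of all genes, and 0 lower (median 0.21). DAL4, the allantoin permease, was at -1.39, -1.30 and -1.30 in D11, against -2.47, -2.40 and -2.76 in H9 (difference 1.21, adjusted p = 0.000113). DAL1, the allantoinase, was higher by 1.08 (adjusted p = 0.00639). PUT1, UGA4, ASP3-1, DCG1 and GAT1 were higher by 0.46 to 0.92, and PUT1 and ASP3-1 lie on XII. In arginine metabolism 3 of 16 genes were higher, CAR2, CAR1 (0.51) and ARG4 (0.42), against 7.65% of all genes, and none was lower. In branched-chain amino acid synthesis BAT2, the cytosolic transaminase, was higher (0.39, adjusted p = 0.00739) and LEU4 did not pass (0.42, adjusted p = 0.0533). For lysine, histidine and the aromatic amino acids 6 of 45 genes were higher, against 7.65% of all genes, and 0 lower (median 0.19). ARO10 (0.93) and ARO9 (0.68), which break down aromatic amino acids, led them (adjusted p = 0.00554 and 0.00218, limma). Without the second D11 array 2 of these 6 passed. Sulfate assimilation and methionine synthesis had JLP1 higher (0.80) and SAM2 lower (-0.50) of 36 genes. No gene of serine, glycine and one-carbon metabolism passed (CHA4 0.43 and CHA1 -0.53 had the smallest p). Of the genes of purine and pyrimidine synthesis, IMD3 (0.71) and ADE16 (0.57), both on XII, passed, and without the second D11 array 0 of 40 did (adjusted p = 0.0504 and 0.0749; limma).

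Genes of ribosome biogenesis, which make and assemble ribosomal RNA, split the D11 arrays. The median over 150 genes was -0.66, 0.02 and -0.67 on the D11 arrays, against 0.00, -0.02 and 0.01 on the H9 arrays, so the second D11 array lay with H9 and the others about 0.66 below. With this spread 1 gene passed higher, SDO1 on XII (0.66), and 1 lower, LSG1, a GTPase of the large subunit (-0.53, adjusted p = 0.0373). Of the 150 differences 14 were above 0, although 18 of the genes lie on XII, and the list median was -0.46, against 0.01 for all genes tested. Without the second D11 array the median was -0.67, and 8 genes passed lower and none higher. Subunits and factors of RNA polymerases I and III had the same order of arrays (-0.29, 0.09 and -0.24 in D11): RRN5, on XII, was higher (0.69), no gene was lower, and RPA190, the largest subunit of polymerase I, had -0.51 (adjusted p = 0.19). Genes of tRNA modification and export had medians of -0.25, 0.06 and -0.29, and SEN2 of the tRNA splicing endonuclease (0.59, on XII) passed while SEN1 (0.37) did not. Cytosolic ribosomal protein genes had another order of arrays (0.19, 0.37 and 0.15 in D11). Of 136 genes 9 were higher, near the 7.65% of all genes, and 3 lower (median 0.22). Without the second D11 array 4 were higher and 3 lower. Of the 9 higher ones 8 lie on XII. RPS29A (0.70) was higher and RPL22B (-0.59), RPL15B (-0.52) and RPL8A (-0.68) lower. Many of these proteins have near-identical gene copies whose probes may not tell them apart.

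The place of these genes differed with the plasmid. With the empty vector 33.8% of all genes passed between D11 and H9, and 6.53% were also past 2-fold, 3.84% higher and 2.69% lower. The interaction passed for 12.6% of all genes, and for 5.8% past 2-fold, 2.67% positive and 3.13% negative. With the empty vector, ribosome biogenesis genes were higher in D11 (median 0.93, 104 of 150 past the test, against 20.4% of all genes), and 88 of the 150 passed the interaction test with a smaller D11 minus H9 difference under the tRNA, against 6.46% of all genes. LSG1 averaged 1.76 in D11 and 2.28 in H9 with the tRNA, and 2.31 in D11 and 1.56 in H9 with the vector (interaction -1.28, adjusted p = 0.00485). RPA190 had an interaction of -1.25 (adjusted p = 0.0187). The third H9 vector array stood apart here, with a ribosome biogenesis median of -0.80 relative to the group mean, against 0.45 and 0.38 on the others. Without it the D11 minus H9 median with the vector was 0.53, a change of more than 1.5 times, and 73 genes passed the interaction test. Without the second D11 tRNA array and the third D11 vector array, 129 passed. The interaction counts lean on the spread being shared over all 22 arrays: fitted over the 12 arrays of D11 and H9 alone, 2 of the 150 genes passed, LSG1 among them, and 55 of all genes.

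The reverse held for lists of energy and stress genes, whose medians were near or above 0 with the tRNA and below 0 with the vector: the nuclear-encoded respiratory chain (0.00 with the tRNA and -0.80 with the vector, 26 of 57 genes with a larger difference under the tRNA and 0 with a smaller one), the general stress response (0.22 with the tRNA and -0.83 with the vector, 18 of 57 genes with a larger difference under the tRNA and 2 with a smaller one) and trehalose and glycogen metabolism (0.14 with the tRNA and -0.83 with the vector, 10 of 28 genes with a larger difference under the tRNA and 0 with a smaller one). For all genes, 6.16% passed the interaction with a larger difference and 6.46% with a smaller one. Without the third H9 vector array the counts with a larger difference were 20, 15 and 8, and the vector medians -0.51, -0.40 and -0.48. Over the 12 arrays of D11 and H9 alone they were 3, 3 and 2. With the tRNA itself few members of these lists differed between the lineages. Of 57 stress response genes 4 were higher and 3 lower, against 7.65% and 0.964% of all genes. UBI4, the polyubiquitin gene on XII (0.88, limma, adjusted p = 0.0258), MRK1 (0.85), DCS1 (0.72, on XII) and GND2 (0.70) were higher. HSP30, SPI1 (-0.95) and YGP1 (-0.76) were lower. The median of the stress response list was 0.37, 0.00 and 0.37 on the D11 arrays, the second again beside H9. The respiratory chain had COX12, ATP14 and HAP1 higher, all on XII, and CYB2 and NDE1 (-0.67) lower. In trehalose and glycogen metabolism PIG1, on XII, passed (0.60), and PCL7 did not (0.28, adjusted p = 0.0764). Single genes with the smallest adjusted p of the interaction beside BNA5, THI4, THI2 and PET18 were HXT2, a hexose transporter, and GPP2, a glycerol phosphatase. HXT2 averaged 0.40 in D11 and 0.62 in H9 with the tRNA, and 0.80 and -0.48 with the vector (interaction -1.50, adjusted p = 0.000447). GPP2 averaged 1.05 and 1.37 with the tRNA, and -0.07 and 1.65 with the vector (interaction 1.41, adjusted p = 0.000757).

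**Figure D4:**
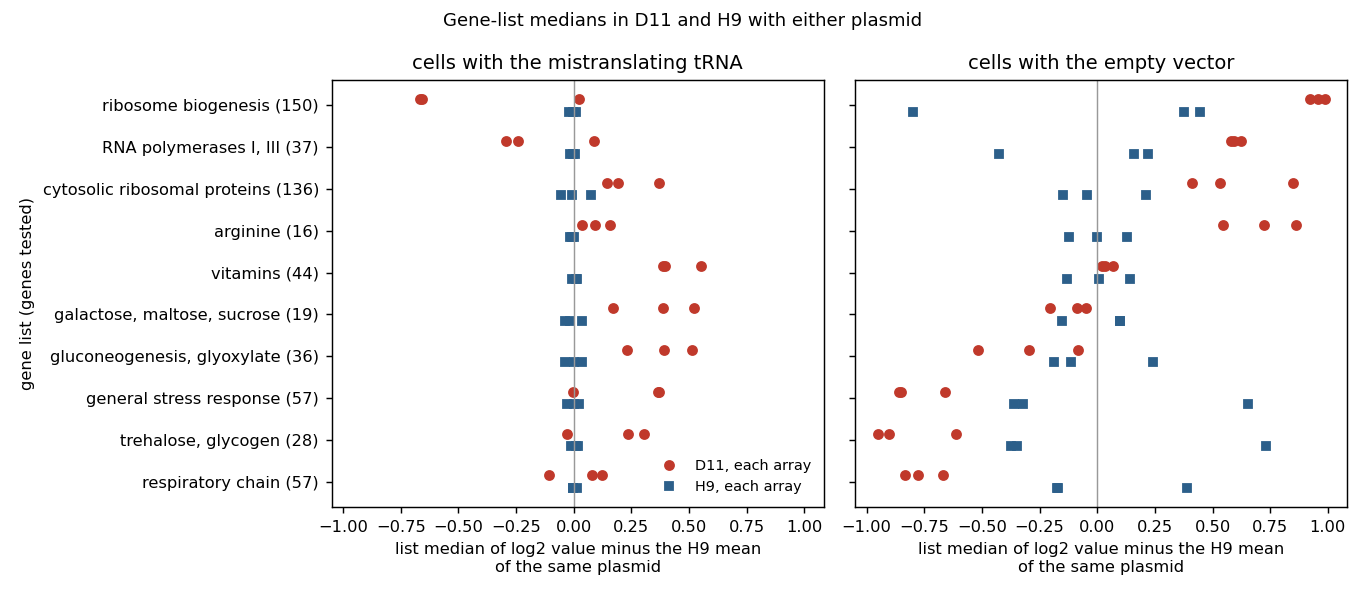
Median over the genes of each list of the log2 value minus the mean of the 3 H9 arrays with the same plasmid (x axis), with 1 point per array for D11 (circles) and H9 (squares), in cells with the tRNA (left panel) and with the empty vector (right panel). With the tRNA the vitamin list lies at 0.39 to 0.55 in D11 and ribosome biogenesis at -0.67 to 0.02; with the vector ribosome biogenesis lies at 0.92 to 0.99 in D11, and the third H9 array stands apart at -0.80.

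Most of the genes of protein quality control that passed the test lie on chromosome XII. Of 49 proteasome genes 3 were higher, against 7.65% of all genes, and none lower. The 3 were PBA1 (0.71), RPN13 (0.62) and IRC25 (0.52), all on XII. The list median was 0.07, and 0.07 without the genes of XII and the ends of IV and V. Without the second D11 array 1 of the 3 passed. Among ubiquitin and the enzymes that remove it, UBI4 passed and YUH1 did not (0.33, adjusted p = 0.0624). UBP3 and UBP5, deubiquitinating enzymes encoded at the end of V, were at -0.01, -0.42 and 0.18 in D11, against 0.25, 0.23 and 0.46 in H9 for UBP3 (difference -0.40, adjusted p = 0.153) and -0.45, -0.33 and -0.60 in D11, against -0.23, -0.22 and -0.36 in H9 for UBP5 (difference -0.19, adjusted p = 0.346). Of 42 chaperones and heat-shock genes 6 were higher, against 7.65% of all genes, and HSP30 was lower. Of the 6, XDJ1, CPR6, HSP60, SSQ1 and SSA2 lie on XII and AHA1, the activator of Hsp90 ATPase, does not (0.56). Without the second D11 array 3 chaperone genes passed higher and 0 lower. For folding in the endoplasmic reticulum SPC3 (0.73) and HRD3 (0.42), both on XII, EUG1 (0.45) and SPC2 (0.39) were higher and ERV2 (-0.25) lower, of 37; without that array 2 passed higher and 0 lower. Of 41 translation factors 4 were higher, against 7.65% of all genes. They were ANB1, HCR1, GCD7 and STM1, the last 3 on XII. Without the second D11 array 2 translation factors passed higher and 1 lower. Of 24 aminoacyl-tRNA synthetases FRS1, on XII, passed (0.45), and KRS1 did not (0.37, adjusted p = 0.291).

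Metal, phosphate and lipid genes gave a few large differences. In the copper and zinc list 3 of 22 genes were higher, against 7.65% of all genes, and none lower. They were CTR3, CUP1-1, a metallothionein (0.78), and IZH3 (0.65, on XII). Outside the lists, and picked after its values were seen, ZPS1, a zinc-responsive cell surface protein, was at 4.38, 0.93 and 4.06 in D11, against 0.36, 0.44 and 0.04 in H9. All D11 arrays were above all H9 arrays, but the second was far below the others and the difference of 2.84 did not pass (adjusted p = 0.0628); without that array it was 3.94 (adjusted p = 0.00827). The zinc transporter ZRT1 was at 5.57, 5.22 and 5.65 in D11, against 4.27, 4.20 and 4.01 in H9 and did not pass either (1.32, adjusted p = 0.426), in a fit whose spread is shared with the other groups. Of 35 iron genes FRE5, a ferric reductase homologue, was higher (-5.19, -6.02 and -4.29 in D11, against -7.88, -5.82 and -7.86 in H9; adjusted p = 0.0233), with the second H9 array among the D11 values, and HMX1 was higher on XII (0.62). In the phosphate list 3 of 29 genes were higher, against 7.65% of all genes, and none lower. They were GIT1, PHO89, a sodium and phosphate cotransporter (1.45, limma, adjusted p = 0.000698), and PHO11 (0.58). PHO89, like GIT1, was not well above background on all 6 arrays. Sterol synthesis had 7 of 33 genes higher, against 7.65% of all genes, and none lower, with ERG27, HES1 (0.87), ERG28 (0.60) and ERG3 (0.57) among the 7. Of the 7, 3 lie outside XII and the ends of IV and V, and without the second D11 array 5 of the 33 passed higher. In fatty acid and phospholipid synthesis ELO3 (0.70) and CKI1 (0.54), both on XII, were higher, while the list median was -0.12. Among genes of oxidative defence OYE3, TRX1 (0.79) and GTT2 (0.58) were higher and GRX4 (-0.57) lower of 43. TRX1 and GTT2 lie on XII. The multidrug list had 6 of 29 higher, against 7.65% of all genes, RTA1 among them (1.44, limma, adjusted p = 0.011), and TPO3 (-0.40) lower.

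At the cell surface 9 of 59 cell wall genes were higher, against 7.65% of all genes, and 1 lower. Of the 59, 12 lie on XII, and outside XII and the ends of IV and V 1 of 46 was higher. NCW2 (0.83) and CTS1, the endochitinase that separates daughter cells (0.75), had the smallest adjusted p (0.000103 and 0.000255, limma). Both lie on XII with 6 of the other 7 higher genes, and CHS2, a chitin synthase, was lower (-0.31). Of 16 genes of the anaerobic list 4 were higher, against 7.65% of all genes, and none lower (median 0.16); they were ANB1 and the hypoxic wall proteins TIR1 (0.58), TIR3 (0.38) and PAU24 (0.51). Of 43 genes of subtelomeric families 13 were higher (19 without the second D11 array), against 7.65% of all genes, 12 of them PAU genes by 0.48 to 0.67, with PAU3 (0.66) and COS2 (0.54) at the smallest adjusted p (0.00195 and 0.00104), and COS8 (-0.54) was lower. PAU and COS genes are near-identical families, so these are not independent measurements. The list median was 0.53, 0.09 and 0.47 on the D11 arrays. Of 30 sporulation genes 7 were higher, against 7.65% of all genes. SPO20 (0.88) and DIT1 (0.78) had the smallest adjusted p (0.00513 and 0.000231, limma). Without the second D11 array 3 of the 30 sporulation genes passed higher. These genes are dim, and their median was 0.16, 0.27 and 0.73 on the D11 arrays, highest on the third. In the mating list PRM6, FIG1 (1.47) and PRM3 (1.54) were called higher. FIG1 and PRM3 had no H9 array above background, and 2 D11 arrays were above it for FIG1 and 1 for PRM3. Set against the same floor they were 2.77-fold and 2.21-fold higher, again estimates near background. PRM2, STE11, NEJ1 and SST2 were higher, the last 3 on XII, and STE7 (-0.40) and HO (-0.37) lower, of 29. Of the MATa-specific genes BAR1, the protease that degrades alpha-factor, passed (0.81, adjusted p = 0.0168), AGA2 (0.97), MFA1 (0.67), ASG7 (0.60), MFA2 (0.59), STE6 (0.32) and STE2 (0.25) did not, and their median was 0.53, 0.05 and 1.10 on the D11 arrays. None of the MATalpha genes passed: AFB1 (0.49, on XII), MF(ALPHA)2 (0.17), MATALPHA1 (0.07), MATALPHA2 (0.00), MF(ALPHA)1 (0.00) and STE3 (-0.11). LEU2 had 0.31 (adjusted p = 0.288).

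Few genes of the mitochondrial and cell cycle lists passed. No mitochondrial ribosomal protein was higher and RSM24 was lower (-0.30, adjusted p = 0.0201), with MRP7 at -0.22 (adjusted p = 0.114); the median over 76 genes was -0.13 and only 10 were above 0. Among genes that maintain mitochondrial DNA and RNA the helicase MSS116 was lower (-0.51, adjusted p = 0.00399), and MIP1, the mitochondrial DNA polymerase, had -0.52 (adjusted p = 0.0757). In the tricarboxylic acid cycle ACO1, aconitase on XII (0.47), and PYC1 (0.44) passed; neither did without the second D11 array (adjusted p = 0.119 and 0.0554). Among cell cycle genes CLB4 (0.53), on XII, and RNR3 (0.35) were higher and MCM2 (-0.30) lower. HHO1, the linker histone, was lower (-0.38, adjusted p = 0.00639), the other 16 histone genes and regulators did not pass, and HIR1 had -0.54 (adjusted p = 0.246). Of 13 regulators of ribosomal protein genes none passed; SFP1 had 0.39 and FHL1 -0.31 (adjusted p = 0.0627 and 0.146).

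Of 28 genes listed from the study, 2 were higher, SDO1 and BDF1 (0.54, limma, adjusted p = 0.0201), both on XII, and none lower. Most of the 28 are genes it names for mutations, copy number or expression, with its own results in view. ADH1, PGK1 and RPL25 served it as a control or in reporters. Its main text does not name BDP1, BRF1 and CDC9. Neither SDO1 nor BDF1 passed without the second D11 array (limma, adjusted p = 0.161 and 0.0509). The hexose transporters of the end of IV did not pass: HXT6 was at 3.22, 1.96 and 3.14 in D11, against 2.16, 2.31 and 2.06 in H9 and HXT7 at 4.10, 2.79 and 3.81 in D11, against 3.01, 3.15 and 2.86 in H9 (adjusted p = 0.514 and 0.529), each with the second D11 array below H9 and the others above, and the 2 genes are near-identical. MRD1, a factor of rRNA maturation, was at 0.91, 1.85 and 0.92 in D11, against 1.87, 1.81 and 2.07 in H9 (adjusted p = 0.369), and TRF5, a poly(A) polymerase of nuclear RNA surveillance, at 0.88, -2.68 and 0.70 in D11, against 1.24, 1.27 and 1.06 in H9 (adjusted p = 0.36), where the second D11 array lay far below the rest. UBP3 and UBP5 are given above. The remaining 20 had differences of 0.62 (BDP1), 0.33 (ADH1), 0.32 (NOC3), 0.30 (GRC3), 0.24 (SOF1), 0.21 (HSM3), 0.19 (RPL25), 0.18 (SOL1), 0.18 (HXT3), 0.11 (IFH1), 0.10 (PRE9), 0.08 (MTL1), 0.06 (RIX7), 0.04 (CDC9), -0.01 (BRF1), -0.06 (PGK1), -0.06 (SSM4), -0.10 (DRS1), -0.14 (HIR2) and -0.30 (TFG2), with adjusted p from 0.23 to 0.957.

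Of 159 genes named here that passed, 132 higher and 27 lower in D11, 39 did not pass without the second D11 array, with adjusted p from 0.0504 to 0.161 (limma). Among those higher in D11, these were ACO1, ADE16, ARG4, BDF1, CKI1, CPR6, EUG1, GCD7, HAP1, HSP60, IMD3, IRC25, IZH3, MAL13, PDC6, PHO11, PRM2, PYC1, RPN13, SDD1, SDO1, SEN2, SOR1, SPC2, SSA2, SST2, STM1, TIR3 and TNA1. Among those lower in D11, these were CHS2, ERV2, HO, HSP30, MCM2, NCA3, NDE1, TPO3, YGP1 and YJR087W. These names cover the second D11 array only. Some of the other genes did not pass when a different single array was left out, among them UBI4, LSG1, RPL15B, SIP4, FRE5, HXT17, PRM3 and PRM6.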

How the data were processed

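Each of the 22 arrays held 2 spots for each of 6256 probes. The authors scanned them in 1 colour and extracted them with Agilent Feature Extraction 10.7.3.1 (version per the file headers); the deposited processed signal is an intensity after that program's background subtraction. The deposited series table holds log2 values of the background-subtracted signal shifted by a constant per array, with column medians from 9.78 to 10.18, and served as an alternative. Levels here were log2 of the processed signal minus the median of the array, as in the study's methods. Control spots were left out, spots of a probe and probes of a gene were averaged, and 5911 of 6225 genes were tested, those that had in some group a spot well above background on each array. Of these, 5589 matched the R64 gene table, which was used only for names and chromosomes since the headers name an older build. Genes were compared with limma 3.58.1 (R 4.3.3) over 8 groups, with Benjamini-Hochberg adjustment over all genes tested. The interaction is the D11 minus H9 difference with the tRNA minus that with the vector. Values over many genes of an array were tested by exact permutation. Nothing states that the 3 samples of a group came from separate cultures, so p-values measure the spread between these samples, which may be technical; no spot was saturated, and the number of arrays limits the precision. Same-numbered arrays shared a slide, but the correlation of their deviations from the group means was -0.03, -0.07 and -0.04, so they were not treated as pairs. On simulated data for this comparison with 5909 genes, 90% of 100 genes changed by 1.5 on the log2 scale were recovered. Of 100 changed by 2.5, 96% were, and there were 2 false calls. The simulated noise was independent between arrays, with 1 spread per gene. It left out the departures of single D11 arrays described above, so the false calls do not measure their part. Named in the text are the 12 called genes with the largest difference in each direction without overlap. Up to 4 called genes with the smallest adjusted p of each list are also named (or, with none called, 2 with the smallest p). All mating-type and deletion-marker genes, those listed from the study and the 6 genes with the smallest interaction p are named too. Other list members that passed, and some that did not, were added after their values were seen. The comparison and the gene lists were chosen with earlier results of these data known. The alternatives were other scalings, background correction (normexp with offset 50 on the median signal, since the mean signal was not used here), filters, thresholds, tests and array sets. Probe sequences were not used here.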

Additional observations from a re-analysis of the deposited data

Results flagged for a closer look

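Of the genes named in the report 233 were counted here, without PDC2. For 67 of the 233, the D11 minus H9 differences with the tRNA and with the empty vector differed (limma interaction over 22 arrays, adjusted p under 0.05). Over all genes tested 12.6% did. The value given for each gene is the difference with the tRNA minus that with the vector, in log2 units. It was positive for 52 genes and negative for 15. Many of the 233 were named for their difference with the tRNA, which is a part of this value, or for a small interaction p. The counts and the lean to positive values are therefore partly set by that choice. They cannot be weighed against the share of all genes. Among genes of thiamine supply and PET18 it was positive for THI2 (2.01), THI20 (1.97), THI73 (1.84), THI7 (1.82), THI4 (1.20), THI11 (0.64), PET18 (1.22), SNO2 (1.33), SNO3 (1.19), SNZ3 (0.86) and SNZ2 (0.77), and negative for SNZ1 (-0.62). In NAD supply it was positive for BNA2 (1.94), BNA5 (1.87), BNA4 (1.10), BNA6 (0.74), TNA1 (0.68) and BNA3 (0.59). Of genes of carbon metabolism and sugar use, GPM2 (2.30), SPS19 (1.70), MAL32 (1.06), IMA1 (0.92), HXT9 (0.96), ACS1 (0.71), YAT1 (0.68), ICL2 (0.61), ACO1 (0.92) and GPP2 (1.41) had positive values. The same held for DAL1 (1.29), UGA4 (1.03), DAL4 (0.92), GAT1 (0.60) and CAR2 (1.05) of nitrogen use. Stress, redox and respiratory genes with positive values were YGP1 (1.96), UBI4 (1.64), DCS1 (1.17), GND2 (0.72), PIG1 (1.05), COX12 (0.79), ATP14 (0.64), AHA1 (0.64) and OYE3 (0.81). For ZPS1 (6.06), the zinc-responsive surface protein, D11 averaged 3.12 and H9 0.28 with the tRNA, and D11 averaged -0.25 and H9 2.97 with the vector, so the lineages stood in opposite order. Positive values were also found for CDA1 (1.96), CTR3 (1.35), YOL160W (1.30), EMP46 (1.29), HES1 (0.96), ERG28 (0.79), DIT1 (0.73), CKI1 (0.64), COS2 (0.57) and HHO1 (0.41). Genes of ribosome and RNA synthesis or processing had negative values, at MRD1 (-2.09), SDO1 (-1.32), LSG1 (-1.28), RPA190 (-1.25), SEN1 (-0.55) and BRF1 (-0.47). The other negative values belonged to FMP48 (-1.59), HSP30 (-1.57), HXT2 (-1.50), ANB1 (-0.98), SPI1 (-0.76), MDH2 (-0.67), STD1 (-0.65) and BAT2 (-0.42). Of the 67 genes, 56 also passed without the third H9 vector array, and 16 passed when only the 12 arrays of D11 and H9 were fitted.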

How the results depend on the processing

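Calls between D11 and H9 with the tRNA numbered 82, and 509 with no fold threshold, 50 at an adjusted p under 0.01, 28 with normexp background correction, 53 among genes above background on all 6 arrays, and 14 without the 20% of genes with the lowest mean level (an alternative chosen after seeing the data). The methods' t-test gave 54 at its own threshold and 34 after Benjamini-Hochberg. Leaving out 1 array of either group gave 56 to 89. With replicate number as a block over all arrays 88 were called, and with the block and only the 6 arrays 0 (limma; 1249 genes had an unadjusted p under 0.05, against 1164 in the fit over all arrays). With quantile normalization 55 were called, 44 higher and 11 lower, against 76 and 6. The interaction gave 343 calls (158 positive and 185 negative), 746 with no fold threshold, 197 with normexp and 41 over 12 arrays; leaving out 1 array gave 118 to 483 (118 without the first D11 tRNA array, 120 without the third, 210 without the third H9 vector array), and scaling to the 75th percentile 210 positive and 141 negative. With the vector 386 genes were called (227 higher and 159 lower), 1998 with no fold threshold, 278 to 563 with 1 array left out. Scaling to the 75th percentile gave 183 and 187, and scaling to genes outside XII and the ends of IV and V 297 and 130. That last scaling gave chromosome XII 0.58 (0.49 to 0.55 with 1 array left out), the end of IV 0.047 and the end of V 0.006; the end of IV was -0.051 with quantile normalization and 0.04 with no filter, and the end of V 0.019 with normexp. Called members of the gene lists numbered 29, 18 with quantile normalization, 15 with normexp and 21 to 32 with 1 array left out. The replicate block changed no other count by more than 1.5 times. Among those 233 named genes, no difference that passed changed direction. Of their alternative values 437 no longer passed and 41 newly passed. NRT1, which did not pass (-0.52), was 0.46 and passed without the second D11 tRNA array and the third D11 vector array together, a setting chosen after seeing the data. The cause was not tested. Signal close to background limits the dimmest genes, where most calls lie.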
